A study of Sus scrofa with 12 samples.

Results

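The genes examined were the 10 genes of the urea cycle and of nitric oxide (NO) synthesis from arginine, namely NAGS, CPS1, OTC, ASS1, ASL, ARG1, ARG2, NOS1, NOS2 and NOS3, among the 20674 genes of the deposited expression table. They were matched to the table by symbol, and all 10 were found. RNA was sequenced from the endometrium, the lining of the uterus, of Landrace × Yorkshire sows in the second or the third parity. The 12 libraries formed 4 groups of 3. L − N sows ate a low-fiber (LF) diet with 3.73% crude fiber, and L + N sows ate the same diet with 0.05% N-carbamylglutamate (NCG). H − N sows ate a high-fiber (HF) diet with 7.46% crude fiber, in which soybean bran and beet pulp took the place of part of the corn, and H + N sows ate that diet with 0.05% NCG. All groups were fed in this way through 114 days of gestation. The libraries carry replicate numbers, and their labels do not say whether each came from a separate sow, so the p-values measure the spread between these samples.

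In the urea cycle, NAGS makes N-acetylglutamate, the obligatory activator of CPS1, and CPS1 joins ammonia and bicarbonate into carbamoyl phosphate in the mitochondrion. OTC couples carbamoyl phosphate to ornithine to give citrulline, ASS1 and ASL turn citrulline into arginine, and the arginases ARG1 and ARG2 split arginine into ornithine and urea. The NO synthases NOS1, NOS2 and NOS3 use arginine instead to make NO and return citrulline, which ASS1 and ASL can recycle. NCG is a stable analog of N-acetylglutamate. The whole cycle is known from the liver and its first steps from the gut epithelium, while NO and the polyamines made from ornithine are known for their part in uterine blood flow and placental growth. The comparison asked how the RNA of these enzymes in endometrium varied with NCG, with fiber and with both.

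The total count per library ranged from 14369781 to 19309724, and 15351 genes had enough counts to be tested. Markers of endometrial stroma summed to at least 22569 CPM (read counts scaled to a common library size) in every library. Epithelial markers summed to at least 1339 CPM. Among stromal markers DCN averaged 1974 FPKM and PGR, the lowest, 9.95 FPKM. Among epithelial markers KRT8 averaged 197 FPKM and FOXA2, the lowest, 9.04 FPKM. Among hepatocyte markers, ALB averaged 0.444 CPM and TAT 0.0423 CPM, and APOA1, at 86.0 CPM, made up most of their sum of 53.6 to 130 CPM. Trophoblast markers summed to 6.75 to 17.6 CPM. L − N replicate 1 stood apart in smooth muscle markers, at 5197 CPM against 797 to 2001 CPM in the other libraries. L − N replicates 2 and 3 stood apart in macrophage markers, at 3475 and 3590 CPM against 713 to 1648 CPM elsewhere. H − N replicate 3 was highest in epithelial markers, at 3598 CPM against 1339 to 2677 CPM, and in neutrophil markers, at 173 CPM against 6.24 to 102 CPM. L − N replicates 1 and 3 were highest in red blood cell markers, at 752 and 513 CPM against 26.6 to 293 CPM.

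The first 3 steps, from NAGS to the citrulline made by OTC, were nearly without reads in endometrium, while the genes that make arginine from citrulline (ASS1, ASL) and most of those that use it were read. NAGS, CPS1 and OTC fell below the filter on low counts and the other 7 genes were tested. By FPKM, which divides the count by gene length and library total, ARG2 had the highest mean level, 13.96 ± 2.16 FPKM (SD, n = 12). ASL followed at 7.61 ± 2.43 FPKM, NOS1 at 6.23 ± 3.11 FPKM, ASS1 at 4.73 ± 1.87 FPKM and NOS3 at 3.89 ± 1.01 FPKM. NOS2 lay at 0.923 ± 0.245 FPKM and ARG1 at 0.406 ± 0.663 FPKM, and NAGS, CPS1 and OTC were at or below 0.0925 FPKM on average.

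The order of neighbours held in some pairs and not in others. ARG2 exceeded ASL in 11 of 12 libraries, NOS3 exceeded NOS2 in 12 of 12 and NOS2 exceeded ARG1 in 11 of 12. The neighbours between ASL and NOS3 were not separated beyond their spread, since ASL exceeded NOS1 in 8 libraries, NOS1 exceeded ASS1 in 8 and ASS1 exceeded NOS3 in 7. Among all genes of the table, the mean FPKM of ARG2 was at percentile 77.5, that of ASL at 64.6, that of NOS2 at 37.0 and that of OTC at 15.6.

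**Figure D1:**
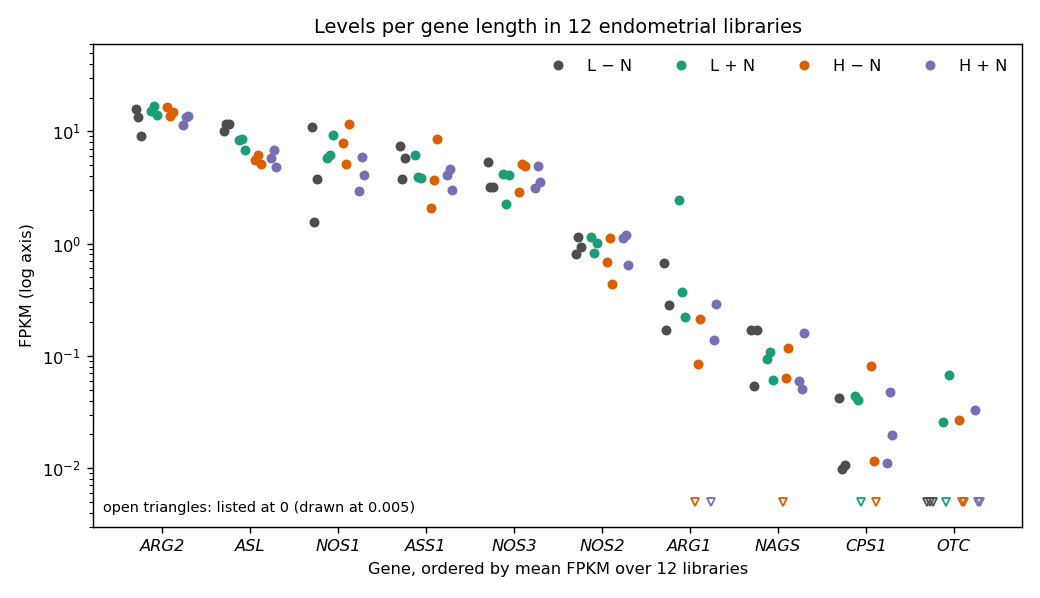
FPKM of the 10 genes on a log axis, ordered by the mean over 12 libraries, with 1 point per library coloured by group and open triangles for libraries listed at 0. ARG2, ASL, NOS1, ASS1 and NOS3 lie between 1.54 and 16.7 FPKM in every library, and NAGS, CPS1 and OTC stay below 0.172 FPKM.

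NAGS (gene ID 100048960, chromosome 12: 19170398 to 19173968, minus strand, Sscrofa11.1, as all positions here) had 20 reads in all 12 libraries together. Its counts were 3, 1 and 3 in L − N, 2, 2 and 1 in L + N, 0, 1 and 2 in H − N, and 1, 1 and 3 in H + N. No library exceeded 3 counts, the limit that a count of 0 allows, which corresponds to 0.146 to 0.208 CPM by library and covers counting error only. A difference in NAGS between groups was therefore not detectable at this depth.

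CPS1 (gene ID 100157716, chromosome 15: 113210038 to 113339086, plus strand), the enzyme that NCG is known to activate, had 33 reads in all. The counts were 4, 1 and 1 in L − N, 5, 4 and 0 in L + N, 9, 1 and 0 in H − N, and 1, 5 and 2 in H + N. The highest and a library at 0 stood in the same group, H − N, and 5 of 12 libraries exceeded 3 counts. OTC (gene ID 397438, chromosome X: 34322398 to 34391711, plus strand) had 5 reads in all, with 0 counts in 8 libraries and at most 2 in the others. OTC overlaps RPGR on the opposite strand, and the strand setting of the counting is not given in the sources used here, so these few reads may belong to either gene. Tested without the filter, NAGS, CPS1 and OTC had adjusted p-values over the 4 groups of 0.795, 0.981 and 0.607 (edgeR quasi-likelihood test, Benjamini-Hochberg).

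ASL, argininosuccinate lyase, which releases arginine from argininosuccinate, was higher in L − N than in any of the other 3 groups. ASL (gene ID 100517757) lies on chromosome 3 from 16637481 to 16646869 on the plus strand. It had 16.2, 19.9 and 19.5 CPM in L − N and 12.5, 13.3 and 10.5 CPM in L + N. It had 8.60, 9.71 and 8.69 CPM in H − N and 9.16, 10.5 and 7.97 CPM in H + N. Every L − N library lay above all 9 other libraries, and the L + N range overlapped that of H + N but not that of H − N. The group means were 18.5 ± 2.05, 12.1 ± 1.42, 9.0 ± 0.615 and 9.22 ± 1.29 CPM (SD, n = 3), in the order L − N, L + N, H − N, H + N. Such an order without overlap, with L − N above the other 9 libraries, was met by 5.28% of all tested genes.

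ASL alone among the 7 tested genes passed the test over the 4 groups, with an adjusted p of 0.0201 (edgeR quasi-likelihood test, Benjamini-Hochberg over all tested genes), where 6.96% of all genes passed. A gene was called in a contrast at an adjusted p under 0.05 and an absolute log2 fold change over 1. In H − N against L − N, ASL was called at −1.04 on the log2 scale (SE 0.17, 95% interval −1.42 to −0.66, adjusted p = 0.0192 by edgeR), the only call among the 7 genes, where 2.91% of all genes were called and 2.01% were called lower. In H + N against L − N, ASL was called at −1.01 (SE 0.17, adjusted p = 0.0158 by edgeR), again the only one of the 7, where 3.58% of all genes were called and 1.28% lower. This value lies close to the threshold on the fold. In L + N against L − N, ASL was lower by −0.61 (SE 0.17, adjusted p = 0.0466 by edgeR), which passed the adjusted p but not the fold, so 0 of 7 genes were called where 3.99% of all genes were, and 1 of 7 passed the adjusted p where 9.60% of all genes did. These 3 contrasts share the L − N libraries.

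The calls of ASL depended on single libraries. Left out in turn, L − N replicate 3 raised the adjusted p for H − N against L − N to 0.0930 and for H + N against L − N to 0.0773 (edgeR). L − N replicate 2 brought the first change to −0.99, and H + N replicate 3 brought the second to −0.91, both short of the fold threshold. Leaving out H − N replicate 1 raised the adjusted p for H − N to 0.0678, and H + N replicate 1 that for H + N to 0.0592 (edgeR). L + N against L − N passed in 2 of 12 such fits. Over 4 groups the adjusted p of ASL rose to 0.0968 without L − N replicate 3, to 0.0539 without L − N replicate 2 and to 0.0507 without L + N replicate 2. In all 12 fits ASL was lower than in L − N in each of the 3 contrasts.

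The pooled effects of fiber and of NCG on ASL did not pass by edgeR, and that of fiber passed by DESeq2. For HF against LF, the mean of both HF groups against both LF groups, ASL had a log2 fold change of −0.72 (SE 0.12, 95% interval −0.99 to −0.45, adjusted p = 0.0576 by edgeR, 7.49e-06 by DESeq2). It passed by edgeR without L − N replicate 1 (adjusted p = 0.00757) and without H + N replicate 2 (adjusted p = 0.0365). In this contrast 0 of 7 genes were called where 0.0261% of all genes were, and none passed the adjusted p where 0.0521% of all genes did. For NCG, pooled over both diets, it had −0.29 (SE 0.12, adjusted p = 0.180 by edgeR), and again 0 of 7 genes were called, against 1.80% of all genes, and none passed the adjusted p where 7.27% of all genes did. The interaction, the effect of NCG on the HF diet minus that on the LF diet, was 0.65 (SE 0.24, adjusted p = 0.322 by edgeR). On the HF diet alone, H + N against H − N, the ASL difference was 0.04 on the log2 scale (95% interval −0.34 to 0.42). With NCG in both groups, H + N against L + N, it was −0.39 (95% interval −0.77 to −0.01, adjusted p = 0.910 by edgeR).

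**Figure D2:**
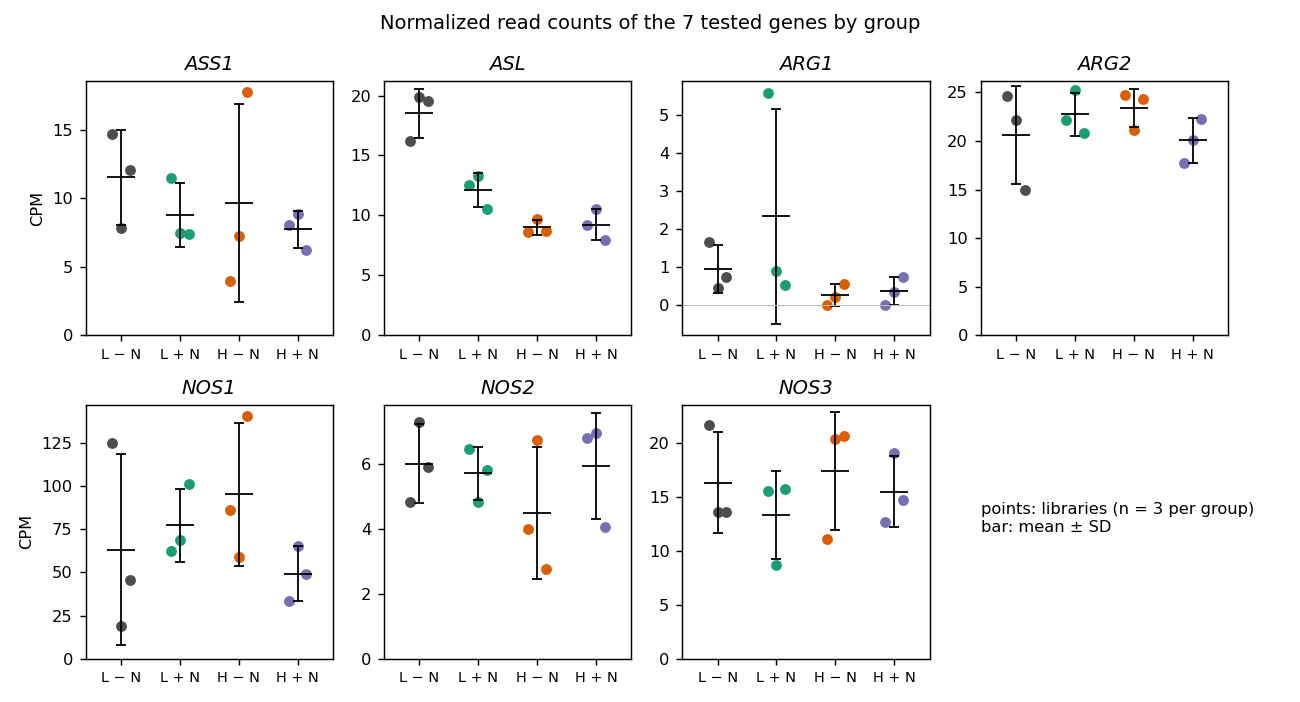
CPM of the 7 tested genes in each library (points, n = 3 per group) with the group mean and SD (bars), each gene on its own linear axis. ASL shows L − N from 16.2 to 19.9 CPM above every other library, and the other 6 genes overlap between all groups.

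Macrophage markers were lower than in L − N in the contrasts where ASL was, and so were markers of some other cell types. The macrophage sum was 1383, 3475 and 3590 CPM in L − N, 1648, 1568 and 1165 CPM in L + N, 959, 1032 and 713 CPM in H − N, and 1386, 1407 and 1122 CPM in H + N. In H − N against L − N, where 5.27% of all genes passed the adjusted p, 7 of the 10 markers passed the edgeR test, all lower, with a median log2 fold change over the 10 of −1.60. In H + N against L − N 4 passed, where 7.97% of all genes did, and in L + N against L − N 2 passed, all lower. The marker sum of L − N replicate 1 lay within the range of L + N and H + N, with 16.2 CPM of ASL in that library and at most 13.3 CPM outside L − N. With L − N replicates 2 and 3 both left out, a choice made after seeing these sums, the ASL log2 fold change was −0.85 in H − N and −0.81 in H + N. Only L − N replicate 1 was then left in its group, so no call is read from this fit. Against L − N, 6 of 6 smooth muscle markers were lower in each group. Endothelial markers were lower in 9 of 10 for H − N, 8 of 10 for H + N and 10 of 10 for L + N. Stromal markers were higher in 6 of 9, 7 of 9 and 8 of 9, in the same order. In H + N against H − N, all 10 macrophage markers were higher (median log2 fold change 0.43), and the ASL change was 0.04. The part of RNA from any of these cells in the ASL difference was not tested. In such bulk tissue, fewer cells of a type and less RNA per cell cannot be told apart.

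**Figure D3:**
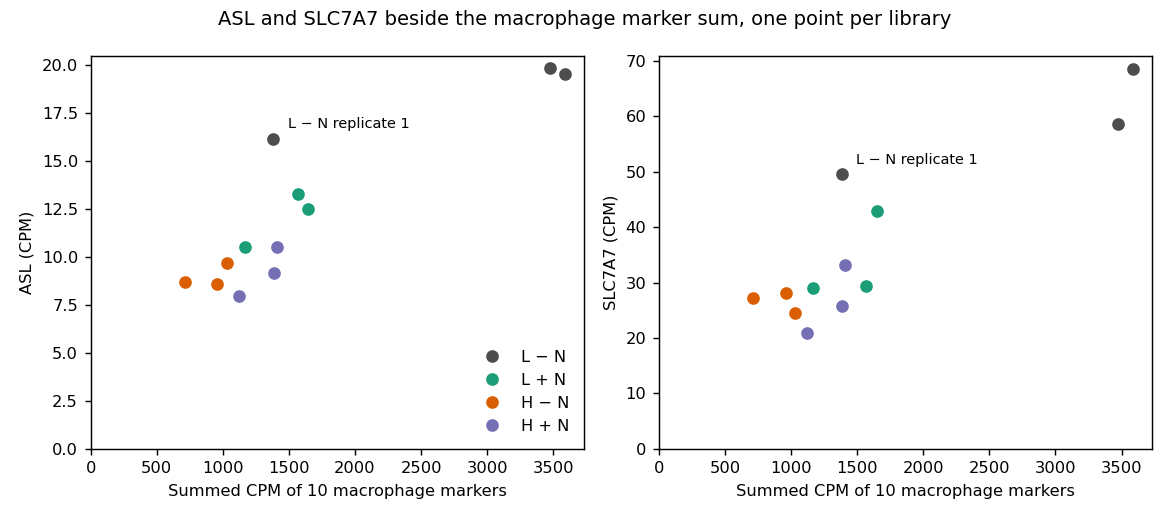
CPM of ASL (left) and of SLC7A7, a cationic amino acid transporter (right), against the summed CPM of 10 macrophage markers, 1 point per library coloured by group. L − N replicates 2 and 3 lie at the right with the highest values of both genes, and L − N replicate 1 lies at 1383 CPM of markers with 16.2 CPM of ASL and 49.5 CPM of SLC7A7, above all other groups.

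ASS1, argininosuccinate synthase, precedes ASL and is known as the step that limits citrulline recycling. It had its highest group mean in L − N, as ASL did, but its groups overlapped. ASS1 (gene ID 414411, chromosome 1: 270531434 to 270586364, plus strand) had 14.7, 7.84 and 12.1 CPM in L − N and 11.5, 7.45 and 7.39 CPM in L + N. It had 3.94, 7.21 and 17.8 CPM in H − N and 8.04, 8.85 and 6.25 CPM in H + N. The lowest and the highest of the 12 libraries both lay in H − N, and all groups overlapped. Its log2 fold change was −0.35 for NCG (95% interval −1.07 to 0.36) and −0.23 for fiber (95% interval −0.94 to 0.49), with an adjusted p over the 4 groups of 0.752 (edgeR). Against L − N it was −0.39 in L + N (95% interval −1.40 to 0.61), −0.26 in H − N (−1.27 to 0.74) and −0.58 in H + N (−1.59 to 0.43). A difference between the ASS1 and the ASL changes was not tested. Without H − N replicate 3, the library highest in epithelial and neutrophil markers, the NCG value turned to 0.04. The part of those cells in its ASS1 level was not tested. The ratio of ASL to ASS1, both in FPKM, ran from 0.606 in H − N replicate 3 to 3.15 in L − N replicate 2. Its group means were 2.17 ± 0.903 for L − N, 1.78 ± 0.430 for L + N, 1.66 ± 1.05 for H − N and 1.49 ± 0.0847 for H + N (SD, n = 3), and the range of H + N lay within those of the 3 other groups.

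ARG2, the mitochondrial arginase that supplies ornithine for proline and polyamines outside the liver, had the smallest SD relative to its mean FPKM among the tested genes. ARG2 (gene ID 100155893, chromosome 7: 91343987 to 91385911, plus strand) had 24.6, 22.2 and 14.9 CPM in L − N and 22.2, 25.2 and 20.9 CPM in L + N. It had 24.8, 21.2 and 24.3 CPM in H − N and 17.7, 20.2 and 22.3 CPM in H + N. L − N replicate 3 was the lowest library and all groups overlapped. The log2 fold change was −0.04 for NCG (95% interval −0.33 to 0.25) and 0.00 for fiber (95% interval −0.29 to 0.29), and both intervals lay inside a change of 1 in either direction. The sign for fiber turned under another scaling.

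ARG1, the cytosolic arginase best known from liver and also from some myeloid cells, was low and uneven. ARG1 (gene ID 397115, chromosome 1: 32006035 to 32028983, minus strand) had counts of 26, 7 and 11 in L − N, 115, 15 and 8 in L + N, 0, 3 and 8 in H − N, and 0, 6 and 12 in H + N. A single library, L + N replicate 1, held 115 of its 211 reads, and the libraries at 0 were H − N replicate 1 and H + N replicate 1. As CPM the group means were 0.944 ± 0.634 for L − N, 2.33 ± 2.82 for L + N, 0.253 ± 0.279 for H − N and 0.354 ± 0.369 for H + N (SD, n = 3). For fiber the log2 fold change was −2.32 (SE 0.87, 95% interval −4.22 to −0.42), which did not pass after adjustment (adjusted p = 0.178 by edgeR, unadjusted p = 0.0212). It was −1.47 without L + N replicate 1, where the NCG value also went from 0.93 to 0.06. ARG2 made up 86.2% of the summed arginase FPKM in L + N replicate 1 and 95.9% to 100% in the other libraries.

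NOS1, the neuronal NO synthase, had the highest mean FPKM of the 3 synthases and the widest spread between libraries. NOS1 (gene ID 100520934, chromosome 14: 35112898 to 35299297, plus strand) had 125, 18.7 and 45.6 CPM in L − N and 62.2, 68.5 and 101 CPM in L + N. It had 86.4, 58.7 and 140 CPM in H − N and 33.5, 65.5 and 49.2 CPM in H + N. The lowest and the second highest library both came from L − N, and all groups overlapped. The log2 fold change of NOS1 was −0.33 for NCG (95% interval −1.19 to 0.53), −0.03 for fiber (95% interval −0.88 to 0.83) and −1.24 for the interaction (SE 0.78, adjusted p = 0.531 by edgeR). Without L − N replicate 1 the NCG value was 0.16, the fiber value 0.46 and the interaction −2.21. L − N replicate 1 is the library with the high smooth muscle marker sum, and H − N replicate 3, the highest for NOS1, that with the highest epithelial and neutrophil sums. The part of these cells in the NOS1 levels was not tested.

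NOS3, the endothelial NO synthase, and NOS2, the inducible NO synthase of macrophages and epithelia, showed no group that stood apart. NOS3 (gene ID 397557, chromosome 18: 6209218 to 6228912, minus strand) had 21.7, 13.6 and 13.6 CPM in L − N, 15.6, 8.68 and 15.8 CPM in L + N, 11.09, 20.4 and 20.7 CPM in H − N, and 12.7, 19.1 and 14.7 CPM in H + N. NOS2 (gene ID 396859, chromosome 12: 44174944 to 44219875, minus strand) had 4.84, 7.27 and 5.91 CPM in L − N, 6.45, 4.83 and 5.82 CPM in L + N, 3.99, 6.73 and 2.76 CPM in H − N, and 6.79, 6.95 and 4.05 CPM in H + N. For both genes every pair of groups overlapped. For NCG, the log2 fold change was −0.23 for NOS3 (95% interval −0.71 to 0.26) and 0.16 for NOS2 (95% interval −0.37 to 0.69). For fiber it was 0.15 for NOS3 (95% interval −0.33 to 0.64) and −0.18 for NOS2 (95% interval −0.71 to 0.35). Endothelial markers, which share their cell type with NOS3, summed to 1258 to 1813 CPM in L − N, 889 to 1093 CPM in L + N, 1214 to 1292 CPM in H − N and 1045 to 1389 CPM in H + N.

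Between the synthases, NOS1 made up 26.2% to 68.8% of the summed FPKM of the 3 genes, with a median of 51.0% over the 12 libraries. NOS3 made up 24.2% to 54.4% and NOS2 2.57% to 19.4%. The ratio of NOS1 to NOS3 FPKM was 1.22 ± 0.768 for L − N, 2.14 ± 0.692 for L + N, 2.04 ± 0.909 for H − N and 1.10 ± 0.150 for H + N (SD, n = 3). L + N lay above H + N in all libraries for this ratio, from 1.40 to 2.77 against 0.927 to 1.20, which was noticed after its values were seen and is given without a test. The summed FPKM ran from 5.88 in L − N replicate 2 to 17.0 in L − N replicate 1, so that 1 group spanned the whole range.

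**Figure D4:**
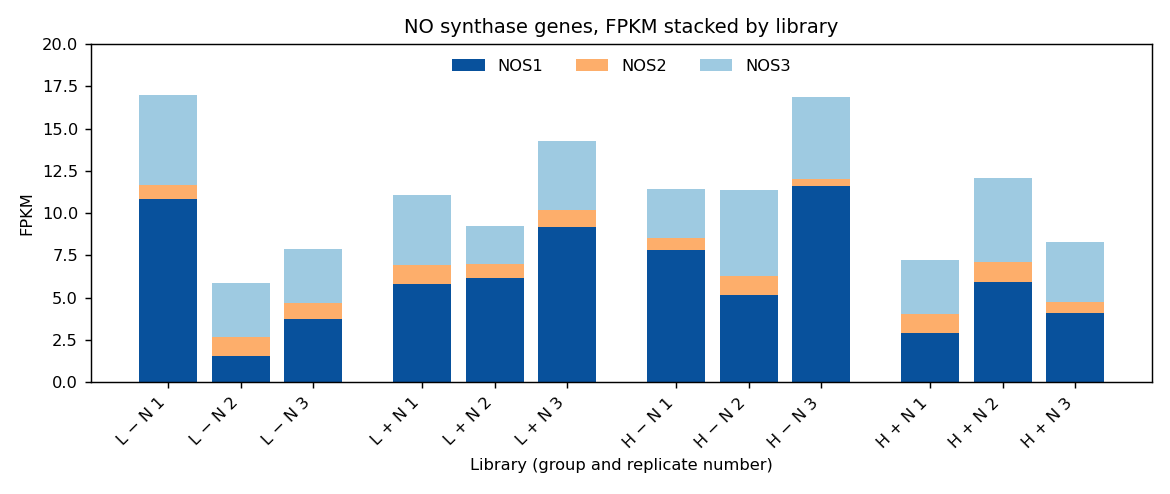
FPKM of NOS1, NOS2 and NOS3 stacked for each of the 12 libraries, on a linear axis from 0. The dark NOS1 part varies most, from 1.54 FPKM in L − N replicate 2 to 11.6 FPKM in H − N replicate 3, and the NOS2 part stays at or below 1.20 FPKM.

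Across contrasts, the 7 tested genes gave few calls. In H + N against L − N, 7 of 7 had a fitted change below 0, with a median of −0.35 on the log2 scale against 0.02 over all tested genes, and ASL alone passed the edgeR test. For NCG 5 of 7 were lower, with a median of −0.23 against −0.03 over all genes, and for fiber 5 of 7 were lower (6 of 7 under RLE scaling), with a median of −0.18 against 0.02. At an unadjusted p under 0.05, 1 of 7 genes and 3628 of all 15351 passed for NCG, and 2 of 7 and 2994 of all for fiber. DESeq2 called 0 of 7 in both, and with no fold threshold 0 of 7 passed for NCG and 1 of 7, ASL, for fiber. The number of all genes called by DESeq2 is given below for fiber and is not given for NCG, so these counts have no share beside them. In the interaction, in H + N against H − N and in H + N against L + N, 0 of 7 genes and 0 of all genes (0%) were called by edgeR. At an unadjusted p under 0.05, these 3 contrasts held 1, 0 and 2 of the 7 genes, beside 1967, 1331 and 719 of all 15351. DESeq2 called 0 of 7 in each, and 184, 25 and 2 of all genes.

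**Figure D5:**
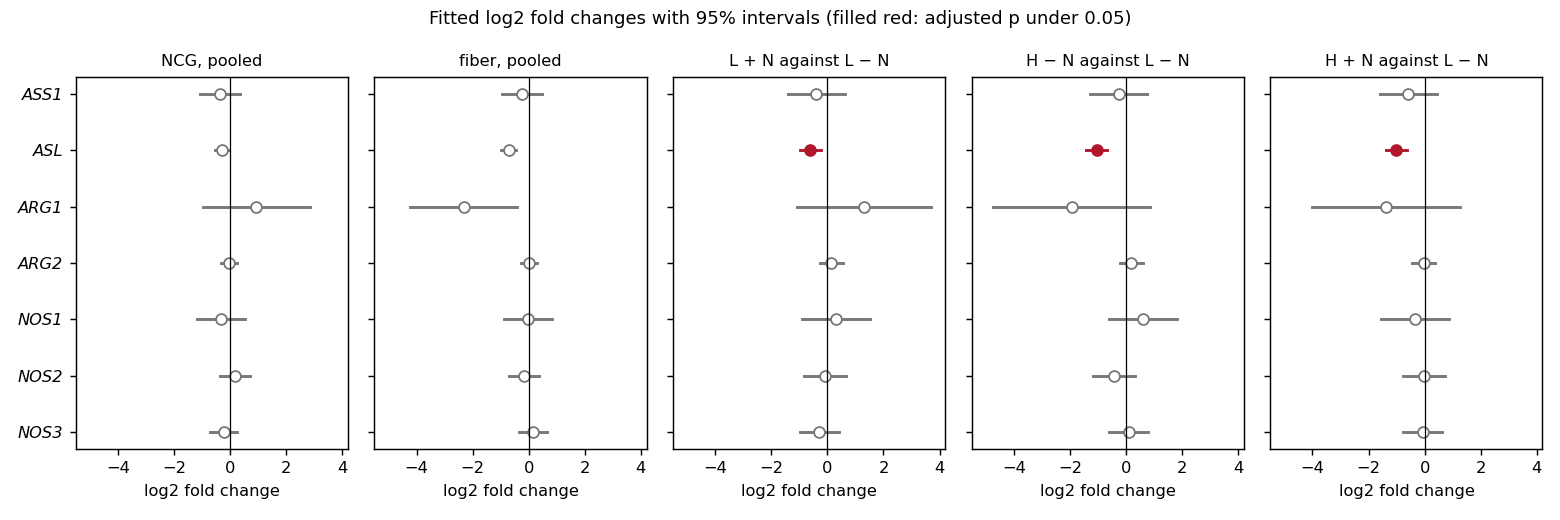
Fitted log2 fold changes of the 7 tested genes with 95% intervals in 5 contrasts, red and filled where the adjusted p is under 0.05. ASL is filled in the 3 contrasts against L − N, at −0.61, −1.04 and −1.01, and ARG1 has the widest intervals.

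The neighbourhood of the pathway was read from 5 lists of 58 genes, of which 56 were found and 53 tested. Over the 4 groups, 1 of 53 passed, SLC7A7, where 6.96% of all genes did. SLC7A7, the y+LAT1 chain that exchanges cationic amino acids such as arginine for neutral ones, had 49.5, 58.6 and 68.5 CPM in L − N and 42.9, 29.5 and 29.1 CPM in L + N. It had 28.1, 24.5 and 27.2 CPM in H − N and 25.8, 33.2 and 21.0 CPM in H + N. As with ASL, every L − N library lay above the other 9. SLC7A7 was lower by −1.15 in H − N (adjusted p = 0.0194), by −1.14 in H + N (adjusted p = 0.0168) and by −0.80 in L + N (adjusted p = 0.0330), each against L − N on the log2 scale by edgeR. Without L − N replicates 2 and 3 these values were −0.90, −0.89 and −0.55, in a fit with only replicate 1 left in L − N. SLC7A7 overlaps OXA1L, and reads of the shared stretch could have been split. The list of arginine transporters and mitochondrial carriers held 9 tested genes, and SLC3A2, the heavy chain that partners SLC7A7, had the highest mean level in it, 23.1 FPKM. In that list 6 of 9 were higher in H + N than in L − N, with a median log2 fold change of 0.09, and 1 of 9, SLC7A7, passed where 7.97% of all genes did. Over all contrasts, 1 of the 9 passed by edgeR and 3 by DESeq2, and the share of all genes passing in any contrast was not computed.

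Among 11 tested genes of glutamine, glutamate, proline and ornithine metabolism, GLUL, the glutamine synthetase, had the highest mean level at 143 FPKM. GLUL had 695 ± 19.9 CPM for L − N, 445 ± 82.2 CPM for L + N, 410 ± 37.6 CPM for H − N and 390 ± 116 CPM for H + N (SD, n = 3), and it passed for H + N against L − N at −0.83 (adjusted p = 0.0343, edgeR). GLS2, the liver-type glutaminase, had a low mean level of 0.898 FPKM. It passed in L + N against L − N at 1.14 (adjusted p = 0.0366, edgeR). Against L − N it was also higher by 1.06 in H − N (adjusted p = 0.0640, edgeR) and by 0.94 in H + N (adjusted p = 0.0714, edgeR), without passing. In H + N against H − N the GLS2 change was −0.12. GLUL overlaps LOC110255568, and GLS2 overlaps SPRYD4 and RBMS2. GLS2 was named after the values were seen. For NCG 5 of the 11 genes were higher and 6 lower (median log2 fold change −0.18). Over all contrasts 6 of the 11 passed by DESeq2, a count for which the share over all genes was not computed.

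Of the other uses of arginine, 7 genes were tested, and SMS, spermine synthase, had the highest mean level at 84.3 FPKM. Only GATM passed in any contrast, the enzyme that takes arginine into creatine synthesis. GATM was lower in H − N than in L − N by −1.11 (adjusted p = 0.0495, edgeR) and was named after its values were seen. DESeq2 also passed 1 of the 7, with no share over all genes computed for any contrast. Of 17 NO synthase partners and inhibitors, among them the chaperone HSP90AA1 at a mean of 616 FPKM, 0 passed in any contrast by edgeR or DESeq2. An unadjusted p under 0.05 in at least 1 contrast was met by 6 of 17, and the share of all genes meeting it was not computed.

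Among the 9 NO targets, the soluble guanylate cyclase subunit GUCY1B1, which with an alpha subunit forms the NO receptor, had the highest mean level at 31.4 FPKM and passed in no contrast. Its alpha partners did pass, and were named after their values were seen. GUCY1A1 was higher than in L − N by 0.75 in L + N (adjusted p = 0.0347, edgeR) and by 0.81 in H − N (adjusted p = 0.0386, edgeR). GUCY1A2 was higher with NCG by 0.90 (adjusted p = 0.0274, edgeR). The median log2 fold change of the 9 genes was 0.30 for NCG and 0.07 for fiber, against −0.03 and 0.02 over all genes. Over all contrasts 2 of the 9 passed by edgeR and 3 by DESeq2, again without a computed share over all genes.

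Whether these pathway genes passed the adjusted p also rested on single libraries. With each of the 12 libraries left out in turn, SLC7A7 passed the adjusted p in 8 fits for L + N, 8 for H − N and 10 for H + N, each against L − N, and missed at 0.132, 0.0949 and 0.0801 without L − N replicate 3 (edgeR). GLUL passed in 8 of 12 fits, GLS2 in 6, GATM in 4 and GUCY1A2 in 10. GUCY1A1 passed in 7 of 12 for L + N and in 3 of 12 for H − N. All kept their direction.

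The genes most like each member over the 12 libraries were sought by Pearson's r of log2 CPM among all tested genes, as a description, since the points share the 4 groups and their cell makeup. For ASL, NPEPPS, an aminopeptidase, had an r of 0.958. ASS1 was most like SLC1A2, a glutamate transporter (r = 0.942), and KCTD3 (r = 0.862). ARG2 was most like COG7 (r = 0.882) and CLDN7, an epithelial tight-junction claudin (r = 0.855), and ARG1 was most like COL9A2 (r = 0.861) and PLEKHG2 (r = 0.848). NOS1 was most like BCL9L (r = 0.924) and its paralog BCL9 (r = 0.920), both cofactors of beta-catenin. NOS2 was most like CAPN6 (r = 0.941) and ACAD11 (r = 0.914), and NOS3 was most like GRAMD2A (r = 0.819) and LANCL2 (r = 0.818). Among the members themselves, the highest r was 0.570 between ASS1 and ARG1 and the lowest was −0.637 between NOS1 and NOS2.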

How the data were processed

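RNA of sow endometrium was measured in 12 libraries, 3 per group, assigned by the deposited titles, whose letters code the diet and NCG. The labels name no pairing between groups. The authors deposited 1 table of read counts and FPKM values, by gene and library, with positions on Sscrofa11.1. Per the submitters' processing notes, fastp 0.22.0, HISAT2 2.1.0 and HTSeq 0.9.1 were used. The counting options are not given in the sources used here. The paper describes Trizol extraction and strand-specific poly(A) libraries. The deposited FPKM differ from a calculation on the counts, lengths and totals by at most 1.9e-05 percent. They were used for levels between genes, and the counts for every test.

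In R 4.3.3, edgeR 4.0.16 was run on all 12 libraries with filterByExpr, TMM and 1 mean per group, and contrasts of these means were adjusted by Benjamini-Hochberg over 15351 genes. CPM was computed on TMM-scaled library sizes, with a prior count of 2 for log2 CPM. Replicates of a group differed by a chi-square of 22.8 to 98.6 per gene, so the spread between samples (biological coefficient of variation 0.269) exceeded counting error. The alternatives were RLE scaling, no filter, DESeq2 1.42.0, a replicate block and each library left out in turn.

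All 10 members were named. Of the context lists, those passing over the 4 groups and the gene of each list with the highest mean FPKM were named, and others where stated. Members and lists were chosen with earlier results of these data known. GUCY1A1 and GUCY1B1 carry older symbols in the table and were matched by their deposited descriptions. SLC25A2 and NOS1AP were not matched. No sequences are printed, because no sequence table was used here. Some genes that the rule would name are not reported here.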

Additional observations from a re-analysis of the deposited data

How the results depend on the processing

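The count of members called was the same under RLE scaling, no filter, DESeq2 and the replicate block in all 9 comparisons, and it rose from 0 to 1 for L + N against L − N with no fold threshold. DESeq2 called more genes in all, 3365 over the 4 groups against 1068, 290 for fiber against 4, 184 for the interaction, 25 for H + N against H − N, 2 for H + N against L + N, 913 for H − N against L − N and 988 for H + N against L − N. Of 117 single-gene values under RLE, no filter and DESeq2, 113 kept their direction and their side of the threshold. ASL for fiber passed with DESeq2 (adjusted p = 7.49e-06), and ASL in L + N against L − N missed without a filter (adjusted p = 0.0607). ARG2 for fiber, close to 0, turned to −0.0095 under RLE and DESeq2.

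The labels do not say whether the replicate numbers pair the samples, and these values cannot decide it. Deviations of same-numbered libraries correlated at −0.322 to 0.283 over 18 pairs, and 3 of 12 libraries correlated best with their own number. With the number as a block, 477 genes were called over the 4 groups, 1 for fiber and 254 for H − N against L − N, NOS1 for fiber turned to 0.045, and ASL in L + N against L − N had an adjusted p of 0.0602. Besides ASL, 6 results of pathway genes that had passed the adjusted p missed it under the block, at 0.0564 to 0.0730 (edgeR).

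With each library left out in turn, members called ranged from 0 to 1 over the 4 groups, in H − N against L − N and in H + N against L − N. In H + N against L − N, the call was lost without L − N replicates 2 or 3 and H + N replicates 1 or 3, in H − N against L − N without L − N replicates 2 or 3 and H − N replicate 1. All genes called ranged from 4 to 1732 over the 4 groups, 157 to 340 for NCG, 0 to 331 for fiber, 0 to 346 for the interaction, 143 to 911 for L + N, 0 to 1120 for H − N and 1 to 948 for H + N, each against L − N. ASS1 for NCG ranged from −0.54 to 0.041, ARG2 from −0.13 to 0.036 for NCG and −0.090 to 0.077 for fiber, NOS1 from −0.54 to 0.16 for NCG and −0.24 to 0.46 for fiber, and ASL in H + N against H − N from −0.072 to 0.13. ASL in L + N against L − N passed in 2 of 12 such fits. With L − N replicates 2 and 3 both left out, only replicate 1 stood for L − N, so no count of calls is read from that fit. Fewer samples were in these fits, and no other cause was tested.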

Other observations

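The deposited annotation places 19 genes in the KEGG arginine biosynthesis pathway, of which 16 were tested and 5 are in none of the lists above. GOT1, GOT2, GPT, GPT2 and ACY1, which move amino groups between glutamate, aspartate and alanine or release acyl groups, passed in 0 contrasts by edgeR. Of these 5 genes, 3 had an unadjusted p under 0.05 in at least 1 contrast and 2 passed in DESeq2. The shares of all genes doing so in any contrast were not computed. GPT2, the mitochondrial alanine aminotransferase, had the lowest mean for L − N, with 32.6 ± 4.64 CPM against 59.3 ± 13.5 for L + N, 72.6 ± 37.6 for H − N and 64.1 ± 6.75 for H + N (SD, n = 3). Its log2 fold change was 1.16 in H − N against L − N (adjusted p = 0.0550, edgeR) and 0.98 in H + N against L − N (adjusted p = 0.0714, edgeR), and GPT2 was singled out after its values were seen. GOT2, the mitochondrial aspartate aminotransferase, had 166 ± 15.1 CPM for L − N, 159 ± 3.93 for L + N, 218 ± 37.0 for H − N and 206 ± 22.8 for H + N (SD, n = 3).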
